A study of Mus musculus with 7 samples.

Results

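Haemoglobin and erythroid transcripts were read in RNA from splenic CD4+CD25+ cells, the fraction that holds regulatory T cells (Tregs). The genes were chosen by symbol, as 4 adult globin genes (Hba-a1, Hba-a2, Hbb-bs and Hbb-bt) and 5 further erythroid genes (Alas2, Ahsp, Car2, Klf1 and Gata1). Of these 9 symbols 8 were matched among the 25469 genes of the deposited table, and Ahsp was not analysed here. The study sequenced 7 libraries as biological replicates, of which 3 were from mice aged 18 months and 4 from young mice aged 8 weeks. Values are given throughout in the order of the replicate numbers. All mice were labelled WT. The methods of the study describe its animals as male C57BL/6 mice and give the young mice an age a little above that of the labels. Isolation was by magnetic beads, and for Tregs the methods name a kit of the type that labels erythroid cells, among others, for removal. The RNA was turned into cDNA with a kit for small RNA amounts that adds no molecular identifiers, so that reads are not independent molecules.

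Haemoglobin carries oxygen in red cells as a tetramer of alpha and beta globin chains, each holding a haem group. The transcripts accumulate in erythroblasts under the control of GATA1 and KLF1, and remain in reticulocytes after the nucleus has been lost. They are defining transcripts of the erythroid lineage. The mouse spleen is a site of red cell production as well as of red cell removal, so that erythroid cells of several stages lie beside its lymphocytes.

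Gene counts ran from 10734234 to 13649310 per library. All pairs of libraries of the same age differed beyond counting noise (chi-square over degrees of freedom 8.16 to 165). The labelled cell type was checked against Cd4, Il2ra and Foxp3, which were read in every library at 434 to 633, 327 to 684 and 394 to 622 CPM (counts scaled to the TMM-normalised library size). Markers of other cells were also read. The summed level of 5 B cell genes was 706 to 1418 CPM in aged and 1158 to 1753 CPM in young libraries. Over the 9 neutrophil genes, the summed level was 694 to 5651 CPM in aged and 325 to 1041 CPM in young libraries, with the highest value in aged replicate 1. That library also held the largest share of mitochondrially encoded reads, at 10.7% against 5.08% to 5.53% in the other aged and 2.63% to 3.23% in the young libraries. The part of these shares in the results below was not tested.

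The 4 adult globin genes took a large and uneven share of the reads. They held 1.27%, 13.1% and 7.60% of the gene counts in the 3 aged libraries, and 10.4%, 1.24%, 6.15% and 5.91% in the 4 young libraries. Aged replicate 1 and young replicate 2 were low and the other 5 libraries were several times higher, so that both ages spanned nearly the same range. The mean share was 7.31% ± 5.90 (SD, n = 3) in aged and 5.93% ± 3.76 (SD, n = 4) in young libraries. A smaller share may come from fewer erythroid cells or from less RNA per cell, which cannot be told apart in bulk RNA.

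**Figure D1:**
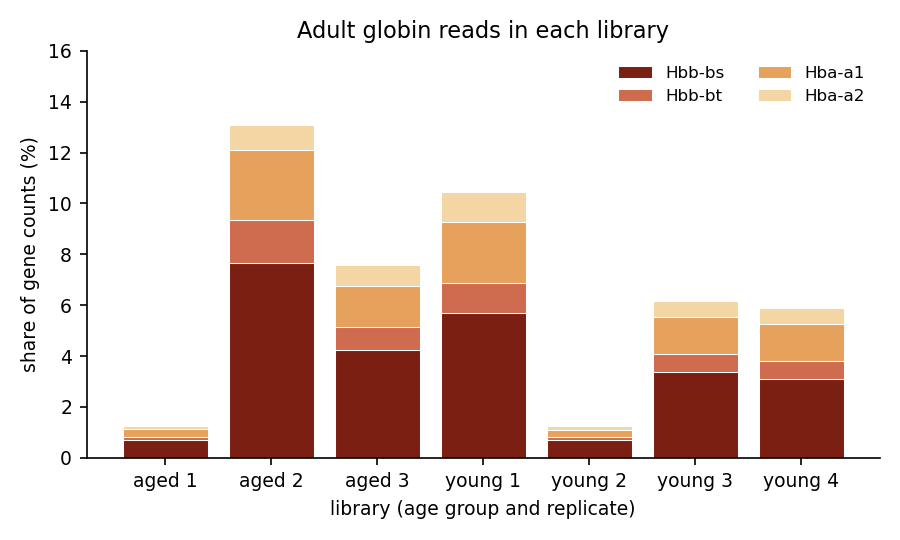
Share of all gene counts (%, vertical axis) taken by Hbb-bs, Hbb-bt, Hba-a1 and Hba-a2 in each library (horizontal axis), stacked by gene with no error bar since each bar is 1 library. The bars of aged replicate 1 and young replicate 2 are near 1.2%, and that of aged replicate 2 reaches 13.1%.

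Hba-a1 and Hba-a2 encode alpha globin and lie beside each other on chromosome 11 of GRCm38, at 32283511 to 32284465 and 32296489 to 32297298 on the plus strand. Hba-a1 (ENSMUSG00000069919) stood at 2991, 31127 and 15935 CPM in the 3 aged libraries and at 25765, 2773, 13626 and 13773 CPM in the 4 young libraries. Hba-a2 (ENSMUSG00000069917) stood at 1439, 11108 and 8614 CPM in the aged and 12196, 1240, 5897 and 6270 CPM in the young libraries. The same 2 libraries were lowest for both genes, and the aged and young ranges overlapped over most of their length. The log2 fold change, aged against young, was 0.25 for Hba-a1 (standard error 0.805, 95% interval -1.58 to 2.09, adjusted p = 0.863) and 0.14 for Hba-a2 (standard error 0.774, 95% interval -1.63 to 1.91, adjusted p = 0.923). These values are from the quasi-likelihood test of edgeR, adjusted by Benjamini-Hochberg.

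Hbb-bs and Hbb-bt encode the adult beta globins of C57BL/6 mice and lie on the minus strand of chromosome 7, at 103826534 to 103828096 and 103812524 to 103813996. Hbb-bs (ENSMUSG00000052305) stood at 6660, 86587 and 42495 CPM in the 3 aged libraries and at 60300, 6707, 32134 and 29716 CPM in the 4 young libraries. Hbb-bt (ENSMUSG00000073940) stood at 1108, 19110 and 9255 CPM in the aged and 12327, 1119, 6790 and 6975 CPM in the young libraries. Aged replicate 2 was the highest library and aged replicate 1 the lowest for both genes, so that the aged group alone covered the whole range. The log2 fold change was 0.49 for Hbb-bs (standard error 0.838, 95% interval -1.42 to 2.40, adjusted p = 0.73) and 0.53 for Hbb-bt (standard error 0.895, 95% interval -1.51 to 2.57, adjusted p = 0.727) in the same edgeR test.

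The promoters of these genes are shown because the globin levels varied together from library to library while Gata1, described below, did not follow them. Whether promoter sequence bears on this pattern was not tested, and many other erythroid genes, given below, varied with the globins. RefSeq promoter sequences on GRCm38.p6 were matched for 7 of the 8 genes, all but Car2. Each line gives the 250 bases before the start of the gene in RefSeq, read on its own strand. The RefSeq starts differ from those of GENCODE, to which the gene positions in the text belong, so that each window overlaps the 5′ end of its GENCODE gene and that of Gata1 lies wholly inside it. Capitals mark matches to 4 short motifs. The GATA motif was searched as AGATAA and also as AGATAG, in addition as TGATAA and finally as TGATAG, on both strands. The CACCC motif bound by KLF factors was searched as CCNCNCCC on both strands, the CCAAT box by its own letters on both strands and the TATA box as ATATAA on the strand of the gene.
Hba-a1, chr11:32283422-32283671, plus strand: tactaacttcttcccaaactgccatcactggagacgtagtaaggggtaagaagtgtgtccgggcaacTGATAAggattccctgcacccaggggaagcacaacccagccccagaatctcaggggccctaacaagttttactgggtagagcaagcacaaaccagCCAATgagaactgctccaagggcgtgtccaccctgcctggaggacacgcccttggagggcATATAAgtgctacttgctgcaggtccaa
Hbb-bs, chr7:103827929-103828178, minus strand: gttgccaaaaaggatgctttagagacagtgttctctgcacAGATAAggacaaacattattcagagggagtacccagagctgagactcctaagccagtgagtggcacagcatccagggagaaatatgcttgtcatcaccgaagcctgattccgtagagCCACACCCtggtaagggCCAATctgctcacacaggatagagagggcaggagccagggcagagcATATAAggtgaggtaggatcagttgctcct
Hbb-bt, chr7:103813924-103814173, minus strand: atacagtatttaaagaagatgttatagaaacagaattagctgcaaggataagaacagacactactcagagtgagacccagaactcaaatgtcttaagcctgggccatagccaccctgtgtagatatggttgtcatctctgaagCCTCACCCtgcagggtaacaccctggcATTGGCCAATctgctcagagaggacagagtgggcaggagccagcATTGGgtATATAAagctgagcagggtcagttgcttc
Alas2, chrX:150547167-150547416, plus strand: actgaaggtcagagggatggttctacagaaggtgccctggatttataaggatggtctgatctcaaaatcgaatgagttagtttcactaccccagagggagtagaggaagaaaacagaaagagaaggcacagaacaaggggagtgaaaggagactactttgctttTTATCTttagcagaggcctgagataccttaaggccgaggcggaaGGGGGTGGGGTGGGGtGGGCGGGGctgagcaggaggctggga
Gata1, chrX:7967911-7968160, minus strand: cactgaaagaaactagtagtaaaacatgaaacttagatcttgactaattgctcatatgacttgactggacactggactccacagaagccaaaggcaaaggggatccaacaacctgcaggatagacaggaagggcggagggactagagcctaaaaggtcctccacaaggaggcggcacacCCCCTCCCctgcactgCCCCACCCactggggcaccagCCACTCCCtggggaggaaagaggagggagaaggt

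The Hba-a2 window matched that of Hba-a1 at 247 of 247 bases after a shift of 3 bases. The Hbb-bs and Hbb-bt windows were identical at 178 of 243 aligned bases (73.3%). Each of the 4 globin windows held the TATA match, 31 to 23 bases before the start, and a CCAAT match on the gene strand, 91 to 71 bases before it. Of all 32851 RefSeq promoter windows of this length, 5.57% held the TATA and 33.8% the CCAAT motif. A GATA match was present in Hba-a1, Hba-a2, Hbb-bs, Alas2 and Klf1, against 26.5% of all windows, and none of the 4 GATA spellings stood in the Hbb-bt or Gata1 windows. The pattern CCNCNCCC was matched in Hbb-bs, Hbb-bt, Alas2 and Gata1, against 45.9% of all windows, and the 4 matches in Alas2 partly overlap each other. This pattern differs from the plain letters CACCC. Some matches lack these letters, such as CCCCTCCC in Gata1 and GGGCGGGG in Alas2. The Hba-a1 window holds the letters CACCC unmarked, so that no match there does not mean that they are absent. Only the Hbb-bs window among the 7 held all 4 motifs, as did 0.103% of all windows. A match is a description of letters and not a measured binding site.

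Within the globin family the mix of transcripts varied far less than the total. Hba-a1 held 20.9% to 24.5% of the globin counts, Hba-a2 7.51% to 11.8%, Hbb-bs 52.4% to 58.5% and Hbb-bt 9.09% to 12.9%. Beta globin counts were 1.75, 2.503 and 2.11 times alpha globin counts in aged and 1.91, 1.95, 1.99 and 1.83 times in young libraries. The young ratios lay close together (1.92 ± 0.0692, SD, n = 4) and inside the aged range (2.12 ± 0.375, SD, n = 3). Per kilobase of exon, the beta to alpha ratio was 1.75 to 2.54 over the 7 libraries. The levels of these shares and ratios are uncertain, because the globin genes share much of their sequence, as given below.

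The ratio of Hbb-bs to Hbb-bt separated the libraries low in globin from the others. It came to 6.01, 4.53 and 4.59 for the aged libraries, and to 4.89, 5.99, 4.73 and 4.26 in the 4 young libraries. Aged replicate 1 and young replicate 2 were highest and nearly equal, and the ages overlapped. The ratio of Hba-a1 to Hba-a2 did not follow this order, at 2.08, 2.80 and 1.85 in the aged and 2.11, 2.24, 2.31 and 2.197 in the young libraries. These ratios are uncertain because the copies are nearly identical. Of all 100-base windows, 56.5% of Hba-a1, 74.5% of Hba-a2, 62.6% of Hbb-bs and 54.8% of Hbb-bt occur unchanged in a transcript of another globin gene, and the count tables record no read aligned to several places.

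The embryonic globins were almost absent. Hbb-y, Hbb-bh1 and Hba-x did not exceed 0.632 CPM in a library, and Hbb-bh0, Hbb-bh2 and Hbb-bh3 had no count in any library, for which the limit that a count of 0 allows is 0.22 to 0.279 CPM. The theta globin genes Hbq1a and Hbq1b were read at low levels, Hbq1b at 2.87 to 60.9 CPM and Hbq1a from 0.437 CPM in aged replicate 1 and 1.12 CPM in young replicate 2 to at least 4.98 CPM in the other libraries, and neither was called between the ages (log2 fold changes -0.36 and 0.33, adjusted p = 0.805 and 0.836 from edgeR). Both were lowest in the libraries low in adult globin.

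Alas2 encodes the erythroid enzyme of the first step of haem synthesis and followed the globins most closely among the other 4 genes. Alas2 (ENSMUSG00000025270), on chromosome X at 150547375 to 150570638, stood at 383, 7822 and 3220 CPM in the 3 aged libraries and at 5088, 505, 2871 and 2810 CPM in the 4 young libraries. The lowest and the highest library were both aged, 20.4-fold apart, and the young range lay between them. Between the ages its log2 fold change was 0.43 (standard error 0.908, 95% interval -1.64 to 2.51, adjusted p = 0.785 from edgeR). Per 1000 globin counts, Alas2 was read 31.4 to 52.9 times, with the lowest value in aged replicate 1. Of its exon length, 15.5% overlaps exons of Apex2 and Mir3620, where reads could not be assigned without strand.

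Car2 encodes carbonic anhydrase 2, an enzyme abundant in red cells that is also made by other cell types. Car2 (ENSMUSG00000027562), on chromosome 3 at 14886273 to 14900770, stood at 301, 1970 and 610 CPM in the 3 aged libraries and at 1102, 93.9, 793 and 880 CPM in the 4 young libraries. Young replicate 2 was the lowest library by 3.21-fold from aged replicate 1, although the globin levels of these libraries differed by at most 1.16-fold. The log2 fold change was 0.42 (standard error 0.794, 95% interval -1.39 to 2.23, adjusted p = 0.758 from edgeR). Car1, another erythroid carbonic anhydrase gene, showed another order, with 60.0, 36.9 and 32.4 CPM in aged and 19.7, 7.64, 97.3 and 38.1 CPM in young libraries.

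Klf1 encodes an erythroid transcription factor that activates the adult beta globin genes. Klf1 (ENSMUSG00000054191), on chromosome 8 at 84901928 to 84905291, stood at 19.7, 53.8 and 13.1 CPM in the 3 aged libraries and at 28.6, 2.10, 45.0 and 42.0 CPM in the 4 young libraries. The lowest value rests on 30 counts. Aged replicate 1 and young replicate 2, alike in globin, were 9.35-fold apart in Klf1, and aged replicate 3, with 7.60% globin, held less Klf1 than aged replicate 1. Between the ages its log2 fold change was -0.03 (standard error 0.811, 95% interval -1.88 to 1.82, adjusted p = 0.985 from edgeR).

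Gata1 encodes the GATA factor of erythroid cells, which megakaryocytes, mast cells and eosinophils also express. Gata1 (ENSMUSG00000031162), on chromosome X at 7959260 to 7978071, stood at 37.9, 62.6 and 25.5 CPM in the 3 aged libraries and at 45.3, 35.5, 57.6 and 51.0 CPM in the 4 young libraries. Its highest and lowest libraries were 2.46-fold apart, the smallest span of the 8 genes, and its lowest library was aged replicate 3 and not one of the libraries low in globin. Between the ages its log2 fold change was -0.17 (standard error 0.286, 95% interval -0.83 to 0.48, adjusted p = 0.72 from edgeR). The summed level of 14 platelet and megakaryocyte genes was 70.7 to 96.0 CPM in aged and 72.0 to 92.1 CPM in young libraries, and that of 10 mast cell, basophil and eosinophil genes 39.4 to 61.7 and 27.0 to 144 CPM. The platelet sum was in large part Itgb3, an integrin gene (34.5 of 70.7 CPM in aged replicate 1 and 54.4 of 72.0 CPM in young replicate 2), which was lower in aged libraries. Of the 11 platelet genes tested, 10 had a positive log2 fold change with age (median of the list 0.72, beside 0.02 over all genes tested). In edgeR 3 of them passed an adjusted p under 0.05 (27.3%, beside 16.7% of all genes), with Ppbp and Treml1 higher and Itgb3 lower. Of the 7 mast cell, basophil and eosinophil genes tested, 1 had a positive log2 fold change (median of the list -1.25). Among these 7, 2 passed (28.6%, beside 16.7% of all genes), with Hdc higher and Cpa3 lower. No gene of these lists was at 0 in all libraries, and their part in the Gata1 level was not tested.

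**Figure D2:**
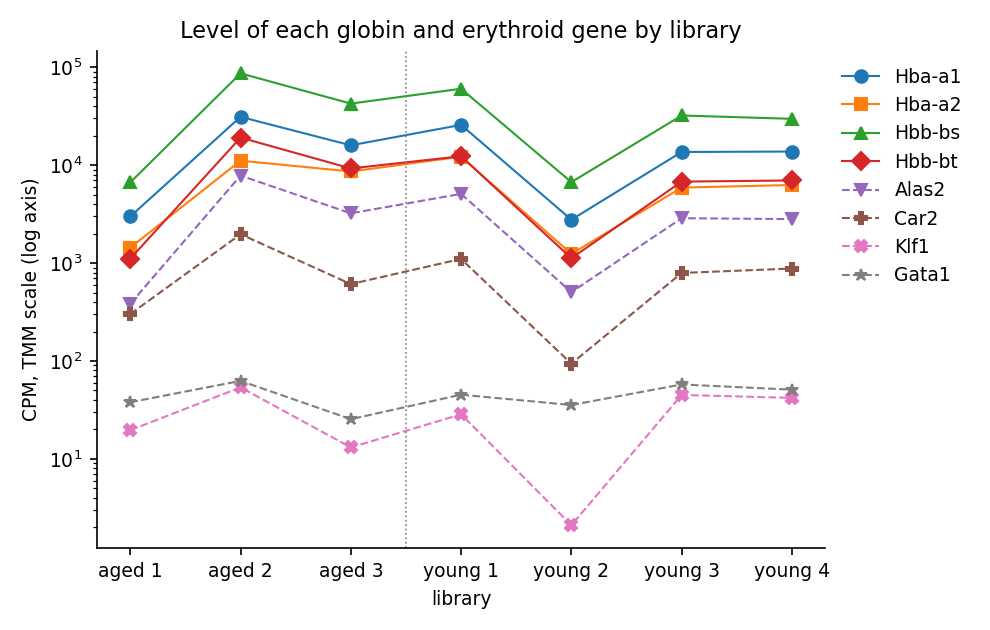
Level of each of the 8 genes (CPM on the TMM scale, log axis) in each library, with aged libraries left and young libraries right of the dotted line, and lines that join the values of a gene. The globin genes and Alas2 are low together in aged replicate 1 and young replicate 2, Klf1 is at 2.10 CPM in young replicate 2, and Gata1 stays between 25.5 and 62.6 CPM.

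Relative to the globins, the early factors differed between libraries. Per 1000 globin counts, Klf1 was read 1.61, 0.364 and 0.172 times in aged and 0.258, 0.178, 0.77 and 0.74 times in young libraries. For Gata1 the values were 3.11, 0.423 and 0.334 in aged, and 0.409, 3.00, 0.985 and 0.898 in young libraries. Both libraries low in globin were high in relative Gata1, whereas in relative Klf1 aged replicate 1 was the highest and young replicate 2 among the lowest. The high relative Gata1 follows from the small globin counts that divide it. Gata1 itself stood at 37.9 CPM in aged replicate 1 and 35.5 CPM in young replicate 2, within its range of 25.5 to 62.6 CPM. Car2 per 1000 globin counts ranged from 7.93 in young replicate 2 to 24.7 in aged replicate 1. For all 4 genes the ranges of the ages overlapped.

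**Figure D3:**
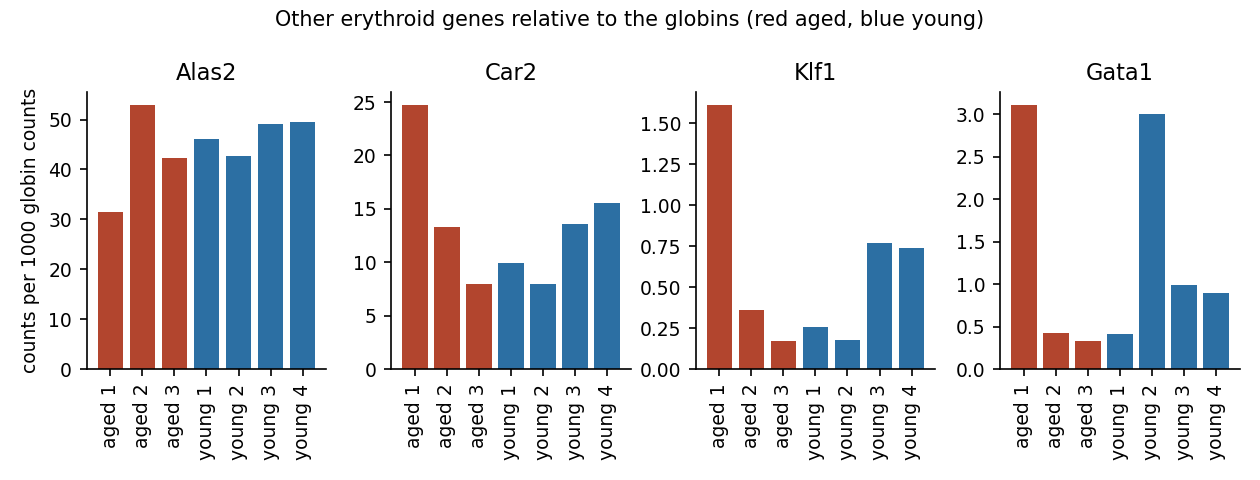
Counts of Alas2, Car2, Klf1 and Gata1 per 1000 adult globin counts in each library (vertical axes start at 0 and differ between panels), with aged libraries in red and young libraries in blue. Aged replicate 1 is highest for Car2, Klf1 and Gata1 and lowest for Alas2 (31.4), and young replicate 2 is high only for Gata1 (3.00). The globin counts that divide these values are smallest in both of these libraries.

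Between the ages, 0 of the 8 genes were called at an adjusted p under 0.05 in edgeR, against 16.7% of the 13904 genes tested (9.8% higher and 6.94% lower in aged libraries). None had an unadjusted p under 0.05 either, in edgeR, DESeq2 or limma voom, and DESeq2 and voom also called 0 of 8 after adjustment (17% and 16.4% of all genes). In no gene of the 8 were the aged and young values separate, against 29.9% of all genes. The median log2 fold change of the 8 genes was 0.34 in edgeR and 0.14 with limma voom, beside 0.02 and 0.01 over all genes tested. An exact two-sided permutation test of log2 CPM gave p-values of 0.543 (Gata1) to 1 (Alas2), where the smallest p that 3 against 4 libraries allow is 0.0286. Differences within the intervals given above are not excluded by these libraries. Without aged replicate 2, the log2 fold changes of all 8 genes were negative, from -0.85 (Klf1) to -0.35 (Hba-a2), and without aged replicate 1 they were positive for all but Gata1 (-0.11).

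**Figure D4:**
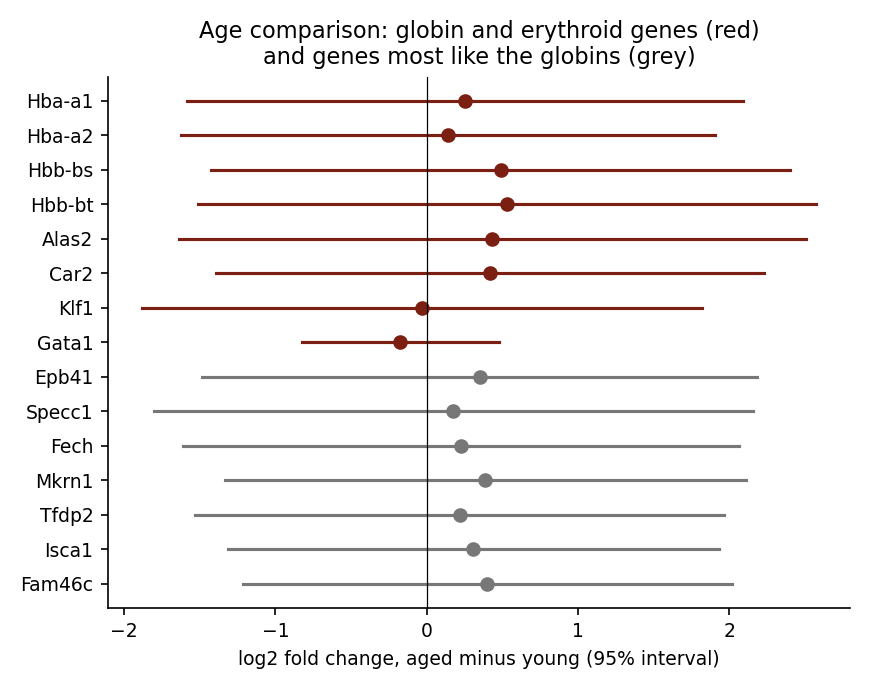
Log2 fold change, aged minus young, with its 95% interval from edgeR for the 8 globin and erythroid genes (red) and 7 of the genes most like the globins (grey), which were chosen for a profile near that of the globins. Every interval crosses 0, and that of Gata1 (-0.83 to 0.48) is the narrowest.

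The spread between libraries of an age was large beside that of most genes read. The standard deviation of log2 CPM between libraries of an age was 1.48 to 1.80 for the 4 globins, Alas2, Car2 and Klf1, beside a median of 0.224 over the 13904 genes tested, of which 3.23% exceeded 1. For Alas2 it was 1.80, and only 34 genes spread more. For Gata1 it was 0.47, and 2389 genes spread more. Erythroid genes were not alone in this, since the median was 1.29 over 9 neutrophil genes and 1.38 over 7 mast cell, basophil and eosinophil genes, beside 0.22 over 7 T cell and Treg genes.

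Lists of further erythroid genes showed how far this spread reached. Of 20 genes of the late erythroblast and reticulocyte, 19 had a standard deviation above 1, as did 18 of 20 genes of the red cell membrane and skeleton. Bpgm, which makes the 2,3-bisphosphoglycerate that tunes oxygen release, ran from 168 CPM in aged replicate 1 and 268 CPM in young replicate 2 to 3521 CPM in aged replicate 2. Slc4a1, the band 3 anion exchanger, stood at 536, 4112 and 1650 CPM in aged and at 3773, 243, 2115 and 3006 CPM in young libraries. Among 14 genes of haem synthesis 4 exceeded 1, among them Fech, Slc25a37 and Abcb10. Alas1, the form of the first enzyme used in other tissues, stayed between 19.2 and 30.3 CPM.

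None of these 54 genes was called between the ages by edgeR or DESeq2 at an adjusted p under 0.05. At an unadjusted p under 0.05, edgeR held 2 of them (3.7%, beside 32.7% of all genes), Abcb6 and Slc2a1, which were named after their values were seen. The median log2 fold change in edgeR was 0.25 for haem synthesis, 0.16 for the red cell membrane and 0.25 for the late erythroblast list, and with limma voom the last 2 were 0.31 and 0.09, so that their order turned. In 44 of the 54 genes (81.5%) aged replicate 1 and young replicate 2 were the lowest libraries, as in 6.2% of all genes tested. Aged replicate 2 was the highest library for 45 of them (83.3%), beside 19.8% of all genes.

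**Figure D5:**
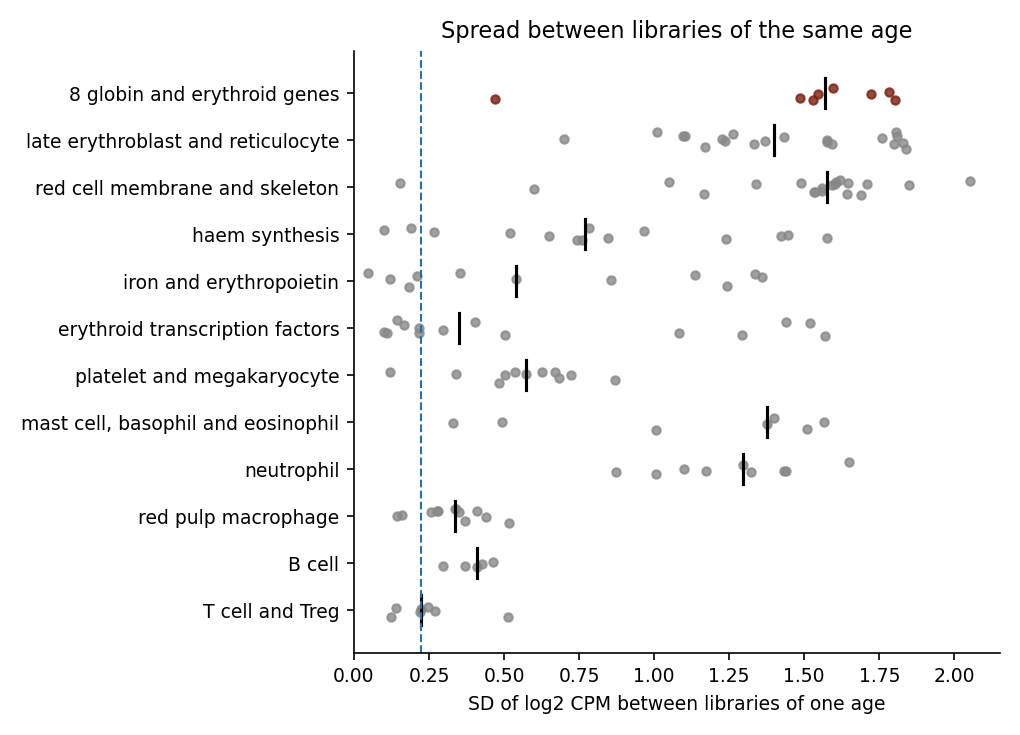
Standard deviation of log2 CPM between libraries of the same age (horizontal axis) for each gene (points) of the 8 globin and erythroid genes (red) and of 11 gene lists (grey), with the median of each list as a black bar and that of all genes tested (0.224) as a dashed line. Gata1 stands alone among the red points at 0.47, most genes of the late erythroblast and membrane lists lie above 1, and the neutrophil and mast cell lists have medians of 1.29 and 1.38.

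The spread was less uniform among erythroid transcription factor and iron genes. Of 14 erythroid transcription factor genes tested, 5 had a standard deviation above 1 (Tal1, Nfe2, Hemgn, Gfi1b and Lmo2). In this list 2 genes were lower in aged libraries, Myb (log2 fold change -1.30, adjusted p = 0.00162) and Klf3 (-0.54, adjusted p = 0.0101), with standard deviations of 0.22 and 0.10. These are 14.3% of the list, beside 16.7% of all genes called and 6.94% called lower. In young replicate 2, low in globin, Myb stood at 61.9 CPM, beside 53.7 to 78.1 CPM in the other young libraries. Klf3 stood at 224 CPM there, beside 225 to 256 CPM. Of 11 iron and erythropoietin genes, 1 was lower, Aco1, the cytosolic aconitase that also binds RNA as an iron sensor (log2 fold change -0.44, adjusted p = 0.0131), which is 9.09% of the list beside 6.94% of all genes called lower. Epor, the erythropoietin receptor, ran from 2.59 CPM in young replicate 2 to 37.8 CPM in aged replicate 2 and was not called. The calls are from edgeR, and which cells the Myb, Klf3 and Aco1 reads came from was not tested.

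Aged replicate 1 and young replicate 2 matched in globin but not in all of these genes. Aqp1, the red cell water channel, stood at 203 CPM in aged replicate 1 and 24.6 CPM in young replicate 2, 8.27-fold apart. Rhd, a blood group antigen gene, was 5.95-fold higher in aged replicate 1. By contrast, Mkrn1 (0.874-fold) and Bpgm (0.625-fold), both on the late list, differed by less than 2-fold. Of the red cell membrane genes 14 of 20 were more than 2-fold higher in aged replicate 1, of the late list 3 of 20 (Car1, Fn3k and Blvrb, named after their values were seen), of the iron and erythropoietin list 5 of 11 of the transcription factor list 4 of 14 and of haem synthesis 5 of 14, beside 10% of all genes tested. This was not particular to erythroid lists, since 6 of 11 platelet and 7 of 9 neutrophil genes were also more than 2-fold higher there. These are single libraries, and the difference between them has no replicate check.

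The genes most like the globins were found by the root mean square difference between each gene's log2 CPM, centred on its mean, and the mean of the 4 centred globin genes, over the 7 libraries and 11956 genes. Of the 8 nearest genes, the 7 reported here are Epb41 (difference 0.161), which encodes the red cell membrane protein 4.1R, Specc1 (0.19), Fech (0.196), which encodes ferrochelatase, the last enzyme of haem synthesis, Mkrn1 (0.201), Tfdp2 (0.216), Isca1 (0.236), which encodes an iron-sulphur cluster protein, and Fam46c (0.255). Epb41 stood at 316, 3623 and 1446 CPM in aged and 2446, 286, 1437 and 1459 CPM in young libraries. On the same measure Alas2 ranked at 10, Car2 at 94, Klf1 at 544 and Gata1 at 1493 among all genes. Without aged replicate 1, 4 of the 8 were among the nearest genes, and without aged replicate 3 or young replicate 4, 5 were.

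Per kilobase of exon, Hbb-bs was the most abundant of the 8 genes in every library, at 8672 to 112744 CPM per kilobase, followed in every library by Hba-a1 at 3415 to 38334. Hba-a2 (1859 to 18284) and Hbb-bt (1577 to 27184) changed places between libraries, so that neither was the higher throughout. The order among the 4 globin genes is uncertain, because they share sequence to unequal extents, as given above. Alas2 (159 to 3255) and Car2 (38.8 to 813) followed in that order in every library. Klf1 (1.37 to 35.1) and Gata1 (10.4 to 25.7) came last, with Klf1 the higher in 4 libraries and Gata1 in 3.

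Spleen macrophages, which take up old red cells and their haemoglobin, were read beside the erythroid genes. The summed level of 12 red pulp macrophage genes was 223 to 399.9 CPM in aged and 327 to 413 CPM in young libraries, with no gene of the list at 0 in all libraries. In this list 5 of 12 genes were called and all 5 were lower in aged libraries (edgeR), beside 6.94% of all genes tested called lower, and Spic (log2 fold change 0.24), Hmox1 (0.40) and Cd5l (0.30) had positive values and were not called. Among the 5 was Cd163, the receptor of the haemoglobin-haptoglobin complex. Cd163 stood at 4.54, 5.04 and 3.28 CPM in aged and 12.8, 13.2, 13.7 and 18.6 CPM in young libraries, and its log2 fold change was -1.77 (adjusted p = 0.00188 from edgeR, standard error 0.218). Adgre1 (-0.70), Vcam1 (-0.56), Mertk (-1.04) and Treml4 (-1.20, named after its value was seen) were the other 4. Of 7 genes of haemoglobin and haem scavenging, 1 was called (14.3%, beside 16.7% of all genes). This was Hp, which encodes haptoglobin and is made by neutrophils too, and it was higher in aged libraries, at 87.0, 33.9 and 18.4 CPM in aged and 12.8, 5.33, 16.7 and 10.5 CPM in young libraries (adjusted p = 0.0334 from edgeR for a difference of 2.04 on the log2 scale, with standard error 0.526). The highest Hp level was in aged replicate 1, the library with the highest summed level of neutrophil genes, and the log2 fold change was 1.20 without it (adjusted p = 0.0761). The call was also lost without any 1 of the young libraries (adjusted p 0.0538 to 0.0863, edgeR) and in limma voom (adjusted p = 0.0594). The part of neutrophil RNA in the Hp level was not tested.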

How the data were processed

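RNA-sequencing of splenic CD4+CD25+ cells was analysed in 3 aged and 4 young libraries. The authors deposited raw read counts per Ensembl gene for each library, in the layout that HTSeq-count writes, named as union mode with strand not used, with mm10 as the build in the submitters' processing notes. The aligner and the annotation are not given in the sources used here. Reads that fell on no gene or were ambiguous (13.1% to 20.9%) entered neither library sizes nor tests. The authors also deposited a signal table of counts over 1 size factor per library (100% of values within a relative 0.0001 of it), with the authors' log2 fold changes and p-values, which were not used. A count of 3 was taken as the limit of detection, 0.22 to 0.279 CPM.

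Symbols were those of the deposited table, and positions and exon lengths those of GENCODE M21 on GRCm38. The age comparison used the quasi-likelihood test of edgeR 4.0.16 (R 4.3.3) after TMM normalisation and filterByExpr by group, with no covariate and Benjamini-Hochberg adjustment over 13904 genes. Standard errors were obtained by dividing the log2 fold change by the square root of F. Spreads used log2 CPM with a prior count of 2, and permutation tests log2 CPM with 0.5 added. Alternatives were DESeq2 1.42.0, limma 3.58.1 (voom, trend, and on the deposited signal with 1 added), other scalings and filters, the replicate number as a block and each library left out. A globin covariate was added after the data were seen. The test was also run on simulated counts, but the outcome is not given here and is used for no result. The genes and lists were chosen with earlier results of these data known. Genes named from each list were the called ones, up to 4 by p-value, or else up to 2 of the highest level. Some genes of the lists are not reported here by name. Further list genes were named after their values were seen, to show the spread. Nothing in the labels says that libraries came from separate animals beyond "biological replicate", so that p-values measure the spread between these libraries.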

Additional observations from a re-analysis of the deposited data

Results flagged for a closer look

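In a group of 4 libraries, a value was examined more closely when its gap to the nearest other library over the range of the group exceeded Dixon's critical value for 95%. Of 62 values examined in the young libraries 2 met this, and chance gives about 1 in 20. The share of Hba-a1 among the adult globin counts was 23.3%, 23.4%, 23.3% and 24.3% in young replicates 1 to 4, so that replicate 4 stood apart (gap over range 0.872) by about 1 percentage point. Cd163 was at 18.6 CPM in young replicate 4 and at 12.8 to 13.7 CPM in the other young libraries (gap over range 0.833), and its log2 fold change without that library was -1.62.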

How the results depend on the processing

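Under every setting run for them, 0 of the 8 globin and erythroid genes were called between the ages. The fit with the globin profile as a covariate was not read for these genes, since 4 of them make up that profile. The log2 fold change of Alas2 went from 0.43 in edgeR to -0.002 with limma voom, -0.0031 with limma-trend and -0.03 with limma on the deposited values, and that of Klf1 went from -0.03 to 0.41, 0.37 and 0.35, and to 0.31 with the replicate block. Bpgm moved to -0.15, -0.15 and -0.17, Tfdp2 to -0.07, -0.07 and -0.09, and Specc1 to -0.0034 on the deposited values. The cause was not tested.

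With single libraries left out, the log2 fold change ranged from -0.57 to 0.75 for Hba-a1, -0.35 to 0.66 for Hba-a2, -0.39 to 1.00 for Hbb-bs, -0.39 to 1.06 for Hbb-bt, -0.65 to 0.97 for Alas2, -0.66 to 0.84 for Car2, -0.85 to 0.32 for Klf1 and -0.58 to 0.09 for Gata1. The ranges were -0.81 to 0.85 for Hbq1b, -0.87 to 0.18 for Hbq1a, -0.63 to 0.65 for Slc25a37, -0.67 to 0.71 for Fech, -1.07 to 0.33 for Slc4a1, -0.68 to 0.85 for Epb41, -0.65 to 0.85 for Bpgm, -0.33 to 0.60 for Ucp2 and -0.26 to 0.98 for Car1. They were -0.78 to 0.68 for Specc1, -0.55 to 0.88 for Mkrn1, -0.72 to 0.71 for Tfdp2, -0.52 to 0.79 for Isca1 and -0.43 to 0.87 for Fam46c.

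Of all genes, 2327 were called, 1016 when a 2-fold change was also asked for (1 on the log2 scale), 2887 in DESeq2, and 1237 to 3058 with a library left out (1262 without aged replicate 3, and 1315, 1270 and 1237 without young replicates 1, 3 and 4). The replicate numbers are shared between the ages, but same-numbered libraries did not deviate together (correlations -0.0915, -0.292 and -0.138), and none correlated best with its own number. With the replicate block 292 genes were called and Slc4a1 moved to 0.02. The block left 1 of 12 red pulp macrophage genes called (5 without it) and 0 of 9 neutrophil genes (3 without it), and Klf3 (-0.54, adjusted p = 0.0974 from edgeR) and Aco1 (-0.45, adjusted p = 0.11) were not called. The mean globin share was 7.31% in aged and 5.93% in young libraries, 5.96% and 4.91% of all reads, and 7.95% and 6.16% without immunoglobulin and mitochondrial genes. Over all results, 714 alternative values stayed on their side, 56 turned direction, 59 lost and 7 gained a call, and 10 moved in size. Among the 8 genes, Klf1 in young replicate 2 was the least deeply counted value, with 30 counts.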

Other observations

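Markers of the isolated cells and of other cells that the fraction could hold were called in part (edgeR, adjusted p under 0.05), beside 16.7% of all genes tested called, 9.8% higher and 6.94% lower in aged libraries. Itgb3, an integrin gene on the platelet list, was lower (log2 fold change -0.84, adjusted p = 0.00193), and Hdc, which encodes the enzyme that makes histamine, was higher (2.14, adjusted p = 0.00131). Both calls were kept with each library left out. Hdc was the only 1 of the 7 tested genes on the mast cell, basophil and eosinophil list with a positive log2 fold change (median of the list -1.25). The other called genes lost the call without at least 1 single library. They were Ppbp (1.80) and Treml1 (1.83) among 11 platelet genes, Cpa3 (-1.28) among 7 mast cell, basophil and eosinophil genes, Cd3e (0.46) among 7 T cell genes, and Retnlg (2.22), S100a9 (2.43) and S100a8 (2.25) among 9 neutrophil genes. S100a8 stood at 1145 CPM in aged replicate 1 against 442 and 155 CPM in the other aged and 63.9 to 229.7 CPM in the young libraries, so that the ages overlapped, and without aged replicate 1 its log2 fold change was 1.29. Without that library S100a9 was at 1.58. Of the neutrophil genes limma voom called 2 and limma on the deposited values 1. None of 5 B cell genes was called in edgeR, where 2 had an unadjusted p under 0.05, while DESeq2 called 2. None of 7 carbonic anhydrase genes other than Car2 was called in edgeR, where 1 had an unadjusted p under 0.05, and DESeq2 called 0.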
